A study of Mus musculus with 6 samples.

Results

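The lysophospholipid acyltransferases described here were 10 mouse genes, Agpat1 to Agpat5, Lpcat1 to Lpcat4 and Gpam, among 34745 genes in the deposited table. They were chosen by gene symbol around Agpat4, which had passed the test between the genotypes in these same data. The difference of Agpat4 between the genotypes is therefore given as a description with no test, and nothing is supported with it. The other members are its paralogs and functional relatives, listed by family and not by their values. RNA was sequenced from cells labelled alveolar macrophages, recovered by washing the airways (bronchoalveolar lavage). There were 3 libraries from Phlpp1-deficient mice and 3 from wild-type (WT) mice. Every mouse, WT included, had been given bleomycin (5 mg per kg) for an exposure of 7 days. Bleomycin damages lung tissue, and fibrosis follows. Phlpp1 encodes a phosphatase known to act on the kinase Akt. No source used here gives the allele, the strain, the age or whether each library came from its own animal, so p-values reflect the spread among these 6 libraries and that spread may be technical. Phlpp1 itself (chromosome 1, 106171752 to 106394250, plus strand, GRCm38) had 23.2, 21.6 and 17.7 CPM (counts scaled to a common library total) in Phlpp1-deficient libraries 1, 2 and 3, against 30.3, 25.2 and 28.5 CPM in WT libraries 1, 2 and 3. The groups did not overlap, but the gene was not called (log2 difference -0.43, SE 0.16, edgeR adjusted p = 0.62), and a count over the whole gene need not show a deletion within it.

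Membrane glycerophospholipids are built by adding fatty acyl chains to a glycerol phosphate backbone. GPAM, on the outer mitochondrial membrane, adds the first chain and makes lysophosphatidic acid. AGPAT enzymes add the second chain and make phosphatidic acid, the precursor of the other phospholipids and of triglyceride. LPCAT enzymes re-acylate lysophospholipids that phospholipases have released, and so set which fatty acids the membranes hold. In the lung this remodelling is known for making the disaturated phosphatidylcholine of surfactant and the inflammatory mediator platelet-activating factor.

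The acyltransferase motif of this family, in which a histidine and an aspartate lie close together in the catalytic site, is printed for the AGPAT genes to place Agpat4 among its paralogs. Each run of 21 bases is coding sequence from a GENCODE M21 transcript (GRCm38), 5′ to 3′, with the codons of the histidine and the aspartate in capitals.
Agpat4: aatCACaagtttgagattGAC
Agpat3: aacCACaacttcgagatcGAC
Agpat1: aacCACcagagttccctcGAC
Agpat2: aatCACcagagcatcctgGAC
Agpat5: aatCATcaaagcacagttGAC
The Agpat4 stretch lies at codons 95 to 101 of 378. Agpat3 has it at the same codons of 376 and shares 17 of the 21 bases with Agpat4, against 12 for Agpat1, 12 for Agpat2 and 11 for Agpat5. The stretches were found by searching for asparagine, histidine and aspartate at fixed places, so most bases of those codons match by selection. Over whole transcripts, the longest match of Agpat4 to another member was also to Agpat3, with 70.5% identity over 875 bases. No other annotated gene matched a member at 95% identity or more along 150 bases or longer.

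Agpat4 (ENSMUSG00000023827) lies on chromosome 17, 12118704 to 12219645, plus strand (GRCm38). It encodes an enzyme that acylates lysophosphatidic acid and is known from mouse brain and from mitochondria. It had 348, 573 and 572 read counts in Phlpp1-deficient libraries 1, 2 and 3, against 72, 51 and 75 counts in WT libraries 1, 2 and 3. As CPM this was 24.9, 42.1 and 42.1 CPM in the Phlpp1-deficient libraries, against 4.33, 4.15 and 4.92 CPM in the WT libraries. Every Phlpp1-deficient library was above every WT library, and Phlpp1-deficient library 1 was the lowest of its group. The means were 36.4 ± 9.91 CPM in Phlpp1-deficient and 4.47 ± 0.402 CPM in WT libraries (SD, n = 3 each), a log2 difference of 3.02 (SE 0.25), or 8.12-fold. Of the 14037 tested genes, 20 had a larger positive log2 difference.

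All 10 members passed the filter on low counts, and 1 of them, Agpat4, was called between the genotypes, in the higher direction. Over all tested genes 0.0997% were called (edgeR's quasi-likelihood test, Benjamini-Hochberg adjusted p under 0.05) and 0.0499% were called higher. Since this call chose the family, nothing is read from that count. The groups did not overlap in 1 of the 10 members, against 11.1% of all tested genes. The call that chose Agpat4 was not made without Phlpp1-deficient library 2, WT library 1 or WT library 3, where its log2 difference was 2.90, 2.9965 and 3.13.

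**Figure D1:**
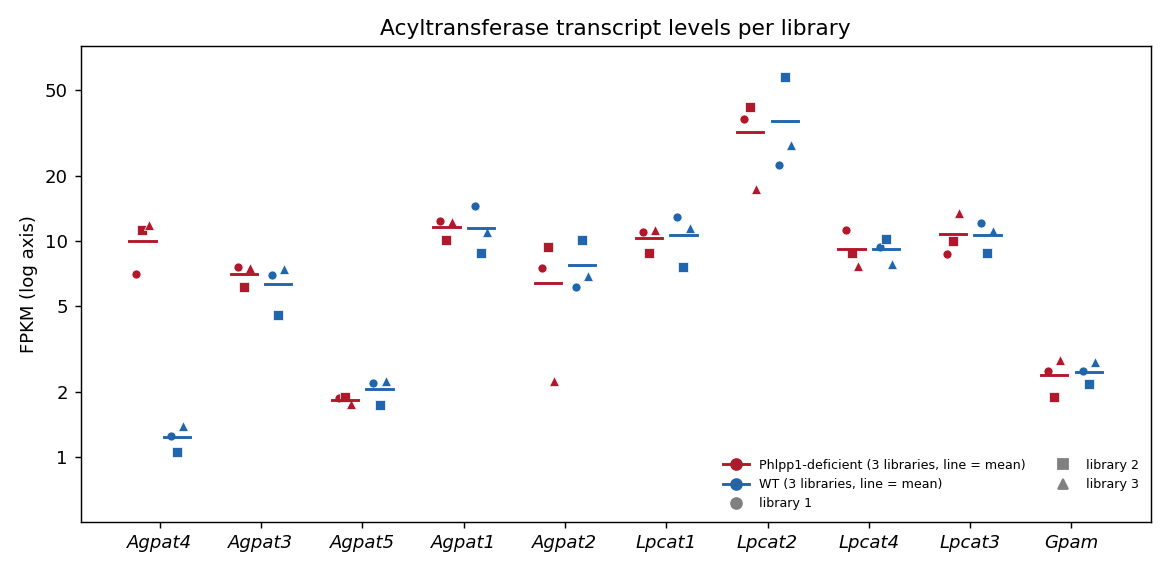
FPKM on a log axis for the 10 acyltransferases, with Phlpp1-deficient libraries in red to the left of WT libraries in blue; symbols mark libraries 1, 2 and 3 and lines the group means. Agpat4 lies between 7.06 and 11.8 FPKM in the Phlpp1-deficient libraries and between 1.05 and 1.38 FPKM in the WT libraries, while the groups of every other gene overlap.

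Agpat3 (ENSMUSG00000001211, chromosome 10, 78269178 to 78352489, minus strand), the closest relative of Agpat4, encodes a lysophosphatidic acid acyltransferase known to favour polyunsaturated chains. It had 82.0, 69.9 and 81.3 CPM in Phlpp1-deficient libraries 1, 2 and 3, against 73.8, 54.9 and 80.9 CPM in WT libraries 1, 2 and 3. The groups overlapped, and WT library 2 was the lowest of the 6. The log2 difference was 0.15 (SE 0.17), with a 95% interval of the fit from -0.26 to 0.56.

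Agpat1 and Agpat2 encode the enzymes of the endoplasmic reticulum that carry much of the cellular activity, and loss of AGPAT2 causes lipodystrophy in humans. Agpat1 (ENSMUSG00000034254, chromosome 17, 34604262 to 34613449, plus strand) had 85.1, 73.8 and 84.9 CPM in the Phlpp1-deficient libraries, against 97.2, 67.4 and 76.2 CPM in the WT libraries. Agpat2 (ENSMUSG00000026922, chromosome 2, 26593057 to 26604417, minus strand) had 19.996, 26.4 and 6.04 CPM in the Phlpp1-deficient libraries, against 15.9, 30.2 and 18.4 CPM in the WT libraries. Neither gene separated the groups, and Phlpp1-deficient library 3 had less Agpat2 than any other library, at 82 counts. The 95% interval of the log2 difference was -0.38 to 0.41 for Agpat1. For Agpat2 it was -1.49 to 0.90, the widest of the family.

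Agpat5 (ENSMUSG00000031467, chromosome 8, 18846277 to 18891361, plus strand), whose product is known from mitochondria, was the steadiest member. It had 23.7, 25.6 and 22.5 CPM in the Phlpp1-deficient libraries, against 27.5, 24.8 and 28.7 CPM in the WT libraries. The ratio of the highest to the lowest library was 1.28, and the groups overlapped through Phlpp1-deficient library 2 and WT library 2. Its log2 difference was -0.17 (95% interval -0.49 to 0.14).

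The LPCAT genes act on lysophosphatidylcholine and related lipids. Lpcat2 (ENSMUSG00000033192, chromosome 8, 92855339 to 92919279, plus strand) encodes the enzyme that makes platelet-activating factor in inflammatory cells. It had 134, 163 and 64.2 CPM in Phlpp1-deficient libraries 1, 2 and 3, against 80.9, 236 and 103 CPM in WT libraries 1, 2 and 3. Within each genotype the libraries differed by more than the genotypes did: the highest was 2.54 times the lowest among Phlpp1-deficient libraries and 2.92 times among WT libraries. The log2 difference was -0.22 (95% interval -1.35 to 0.92), and without single libraries it lay between -0.50 and 0.40.

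Lpcat1 (ENSMUSG00000021608, chromosome 13, 73467197 to 73516422, plus strand) is known for making surfactant phosphatidylcholine in alveolar type 2 cells. It had 59.2, 50.2 and 61.4 CPM in the Phlpp1-deficient libraries, against 68.0, 45.5 and 62.1 CPM in the WT libraries. Lpcat3 (ENSMUSG00000004270, chromosome 6, 124663027 to 124704418, plus strand) belongs to the separate membrane-bound O-acyltransferase family and puts polyunsaturated chains into phosphatidylcholine. It had 52.1, 63.3 and 80.9 CPM in the Phlpp1-deficient libraries, against 70.8, 58.5 and 66.5 CPM in the WT libraries. The Phlpp1-deficient range of Lpcat1 lay inside the WT range, and the WT range of Lpcat3 lay inside the Phlpp1-deficient range. The log2 differences were -0.04 (95% interval -0.47 to 0.39) for Lpcat1 and 0.00 (95% interval -0.43 to 0.44) for Lpcat3.

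Lpcat4 (ENSMUSG00000027134, chromosome 2, 112239468 to 112247111, plus strand), which acylates several lysophospholipids, had 42.9, 35.7 and 29.3 CPM in the Phlpp1-deficient libraries, against 35.0, 43.7 and 30.1 CPM in the WT libraries. Gpam (ENSMUSG00000024978, chromosome 19, 55067268 to 55127238, minus strand) had 9.32, 7.49 and 10.6 CPM in the Phlpp1-deficient libraries, against 9.08, 9.04 and 10.4 CPM in the WT libraries. Both genes overlapped between the groups. The log2 differences were -0.01 (95% interval -0.49 to 0.46) for Lpcat4 and -0.06 (95% interval -0.52 to 0.41) for Gpam.

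Of the 9 members other than Agpat4, 3 had a log2 difference above 0 and 6 below, from -0.30 to 0.15, and 0 were called by edgeR, DESeq2 or limma-voom. In the edgeR fit 0 of the 9 had an unadjusted p under 0.05, beside 6.96% of all tested genes. Their median was -0.04, beside -0.02 over all tested genes. All 9 intervals of the fit held 0. The signs rested on single libraries: leaving out 1 library turned the sign of 7 of the 9, all but Agpat3 and Agpat5. Agpat2 was at -0.72 without Phlpp1-deficient library 2, at 0.13 without Phlpp1-deficient library 3 and at 0.037 without WT library 2. Lpcat2 was at 0.40 without WT library 2 and at 0.11 without Phlpp1-deficient library 3. A missing call does not show equal levels, but the intervals of 7 of the 9 lay within a log2 difference of 0.60 on either side of 0, and those of Agpat2 and Lpcat2 were wider.

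**Figure D2:**
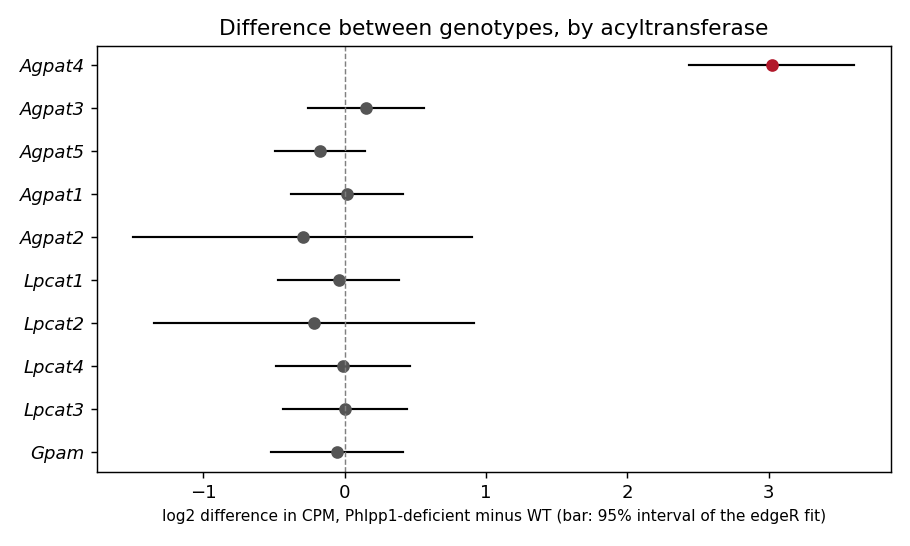
The log2 difference in CPM between Phlpp1-deficient and WT libraries (dot) with the 95% interval of the edgeR fit (bar) for each acyltransferase. Agpat4 stands at 3.02, and the other 9 genes lie between -0.30 and 0.15 with intervals that hold 0.

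Levels of different genes were compared as FPKM, which divides by gene length. In WT libraries Agpat4 was the lowest of the 10 genes at 1.23 ± 0.169 FPKM (SD, n = 3), and its range did not reach that of Agpat5, the next one up at 2.06 ± 0.278 FPKM (SD, n = 3). In Phlpp1-deficient libraries it was at rank 5 with 10.03 ± 2.59 FPKM (SD, n = 3), and its range overlapped those of its neighbours in the order, Lpcat1 and Lpcat4. Lpcat2 was the highest in both genotypes, at 31.9 ± 12.9 FPKM in Phlpp1-deficient and 35.9 ± 18.8 FPKM in WT libraries (SD, n = 3 each), and its range did not overlap that of Agpat1, at rank 2. Agpat1, Lpcat3 and Lpcat1 followed in both genotypes with overlapping ranges. Agpat5 and Gpam were low in both genotypes, from 1.74 to 2.23 FPKM and from 1.89 to 2.82 FPKM over the 6 libraries.

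Agpat4 made up 19.4%, 29.0% and 33.3% of the summed FPKM of Agpat1 to Agpat5 in Phlpp1-deficient libraries 1, 2 and 3, against 4.04%, 4.001% and 4.78% in WT libraries 1, 2 and 3. Its FPKM equalled 0.931, 1.84 and 1.59 times that of Agpat3 in the Phlpp1-deficient libraries, against 0.180, 0.232 and 0.186 times in the WT libraries. These ratios rest on the lengths behind FPKM, 3629 bases for Agpat4 and 11110 bases for Agpat3. As CPM, without the lengths, Agpat4 was below Agpat3 in every library. The shares and ratios contain the difference that chose the family. The sum of the other AGPAT genes was 26.8 ± 2.87 FPKM in Phlpp1-deficient and 27.5 ± 2.30 FPKM in WT libraries (SD, n = 3 each), and the groups overlapped. With Agpat4 the sum was 36.9 ± 1.63 FPKM in Phlpp1-deficient and 28.7 ± 2.40 FPKM in WT libraries (SD, n = 3 each).

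**Figure D3:**
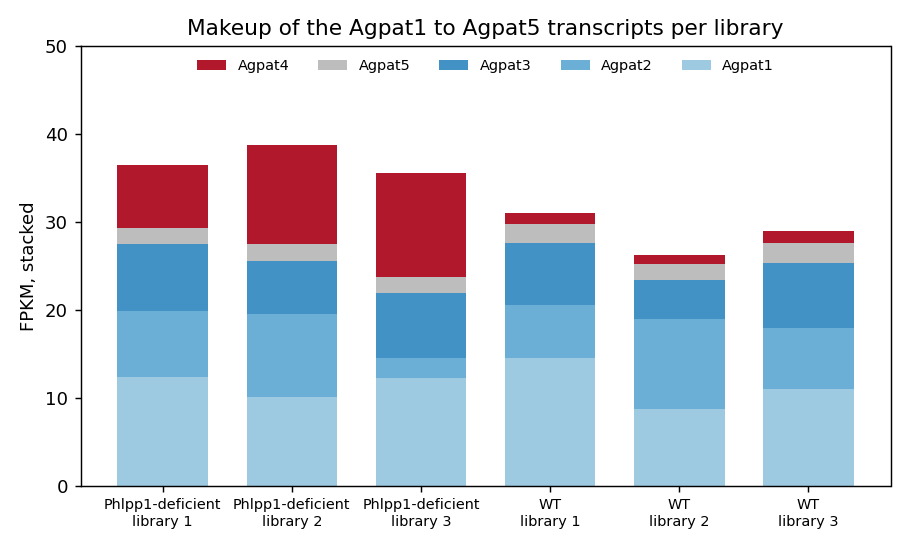
Stacked FPKM of the AGPAT genes in each library, Phlpp1-deficient libraries to the left of WT libraries, with Agpat4 in red on top. The Agpat4 part is 19.4% to 33.3% of the stack in the Phlpp1-deficient libraries and 4.001% to 4.78% in the WT libraries, on a remainder of 23.7 to 29.4 FPKM in the Phlpp1-deficient and 25.2 to 29.8 FPKM in the WT libraries.

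Across libraries, Lpcat2 and Agpat2 were highest where neutrophil genes were highest. The mean of 14 tested neutrophil markers was 6.87, 7.76 and 4.82 log2 CPM in Phlpp1-deficient libraries 1, 2 and 3, and 3.67, 8.03 and 5.78 log2 CPM in WT libraries 1, 2 and 3. The summed level of the 15 listed markers, led by Csf3r and S100a9, was 1460 to 8093 CPM in Phlpp1-deficient and 1224 to 11475 CPM in WT libraries. In bulk RNA, more cells of a type and more RNA per cell cannot be told apart. Within both genotypes the order of the 3 libraries was the same for the neutrophil mean, Lpcat2 and Agpat2, and was the reverse for Lpcat1.

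Over the 6 libraries Lpcat2 and the neutrophil mean had a Pearson r of 0.910 (exact permutation p = 0.0153, adjusted p = 0.206) and a Spearman rho of 0.943 (exact permutation p = 0.0167, adjusted p = 0.15). Lpcat1 had an r of -0.910 (exact permutation p = 0.0125, adjusted p = 0.206) and a rho of -0.943 (exact permutation p = 0.0167, adjusted p = 0.15). Agpat2 had an r of 0.699 (exact permutation p = 0.0958, adjusted p = 0.431) and a rho of 0.943 (exact permutation p = 0.0167, adjusted p = 0.15). Agpat1 had an r of -0.859 (exact permutation p = 0.0278, adjusted p = 0.25) and a rho of -0.829 (exact permutation p = 0.0583, adjusted p = 0.347). Without WT libraries 1 and 2, the farthest from the median, r was 0.980 for Lpcat2, -0.840 for Lpcat1, 0.894 for Agpat2 and -0.513 for Agpat1. These relations were added after the values were seen. They were picked from 27, of 9 members with 3 marker lists, and none passed after Benjamini-Hochberg adjustment over the 27. Agpat4 was left out, since its values fall into separate clusters by genotype. Lpcat1 was not highest where lung epithelial markers were: its r with their mean was -0.294 (exact permutation p = 0.585, adjusted p = 0.921), its rho -0.314 (exact permutation p = 0.564, adjusted p = 0.867), and its r 0.553 without the farthest libraries, Phlpp1-deficient library 2 and WT library 3.

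**Figure D4:**
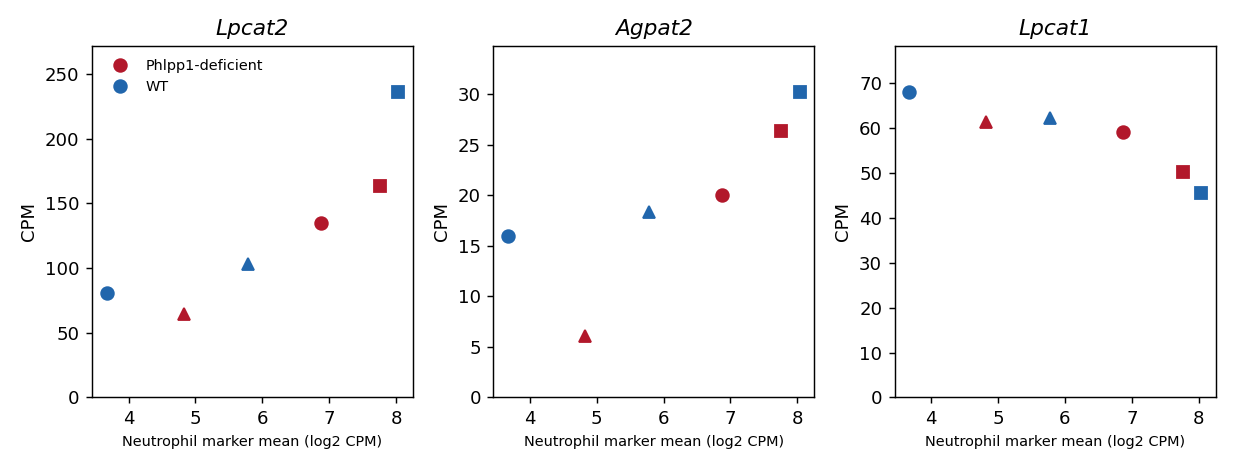
CPM of Lpcat2, Agpat2 and Lpcat1 against the mean log2 CPM of neutrophil markers in each library; circle, square and triangle mark libraries 1, 2 and 3, red Phlpp1-deficient and blue WT. Lpcat2 spans 64.2 to 236 CPM and is highest in WT library 2, where the neutrophil mean is 8.03, and Lpcat1 is lowest there at 45.5 CPM.

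The libraries held 13340861 to 15843764 counts. Of the 15 markers of resident alveolar macrophages, led by Chil3 and Itgax, all were detected, summing to 5593 to 10892 CPM in Phlpp1-deficient and 5837 to 7562 CPM in WT libraries with 14 of 15 higher in the mean, but markers of other cells were present too. With edgeR 0 of the listed markers were called between the genotypes, beside 0.0997% of all tested genes. The summed CPM of 3 other marker lists did not overlap between the groups. Of single tested genes, 11.1% did not overlap, and 6413 of 14037 had a log2 difference above 0. The markers of a list are not independent of each other, and the lists were not tested as sets. Lung epithelial markers, led by Scgb1a1 and Napsa, summed to 775 to 1402 CPM in Phlpp1-deficient and 577 to 652 CPM in WT libraries, with 13 of 15 higher in the mean. Eosinophil, mast cell and basophil markers, led by Alox15 and Prg2, summed to 59.97 to 92.7 CPM in Phlpp1-deficient and 10.1 to 53.7 CPM in WT libraries, with 8 of 10 higher. Natural killer cell markers, led by Gzma and Klrd1, summed to 94.9 to 195 CPM in Phlpp1-deficient and 227 to 277 CPM in WT libraries, with 0 of 10 higher. B cell markers, led by Ighm and Cd79a and with 12 of 12 higher, overlapped at 482 to 1934 CPM in Phlpp1-deficient and 282 to 616 CPM in WT libraries. T cell markers, led by Il7r and Lck and with 11 of 12 higher, overlapped at 1617 to 2131 CPM in Phlpp1-deficient and 1428 to 1702 CPM in WT libraries. Monocyte markers, led by Apoe and Itgam and with 2 of 15 higher, were at 3480 to 4542 CPM in Phlpp1-deficient and 4495 to 6593 CPM in WT libraries, and erythroid markers, led by Hba-a1 and Hbb-bs, were at 366 to 5147 CPM in Phlpp1-deficient and 457 to 8373 CPM in WT libraries. Which lists separated the groups depended on the scale. As the mean log2 CPM of tested markers, the epithelial and natural killer lists again did not overlap. Monocyte markers then did not overlap either, at 6.80 to 7.12 in Phlpp1-deficient and 7.26 to 7.79 in WT libraries. The eosinophil, mast cell and basophil list, with 4 of 10 markers tested, overlapped at 3.22 to 3.58 in Phlpp1-deficient and 0.68 to 3.43 in WT libraries. Resident alveolar macrophage markers overlapped on both scales, at 6.75 to 7.87 in Phlpp1-deficient and 6.73 to 7.55 in WT libraries as mean log2 CPM. Chil3 made up much of their sum, with means of 5102 CPM in Phlpp1-deficient and 3330 CPM in WT libraries. No listed marker was at 0 in all 6 libraries, and the part of these cells in the difference of Agpat4 was not tested.

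The promoter window of Agpat4 is shown because the gene stood apart from its family. It is GRCm38.p6 chr17:12119034-12119333, plus strand, from RefSeq, with 250 bases before and 50 after the start annotated there. The whole window lies inside the gene as GENCODE M21 annotates it, from 12118704. The bases around that GENCODE start were not searched. Capitals mark the match to an AP-1 motif (TGANTCA, searched on both strands).
Agpat4: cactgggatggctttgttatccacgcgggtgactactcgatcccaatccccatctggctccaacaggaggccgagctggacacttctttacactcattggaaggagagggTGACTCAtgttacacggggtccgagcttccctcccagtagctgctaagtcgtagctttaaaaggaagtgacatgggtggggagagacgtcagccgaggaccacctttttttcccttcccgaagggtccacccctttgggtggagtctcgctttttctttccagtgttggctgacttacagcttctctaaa
The window holds 1 such match, as do 7.81% of 32851 promoter windows of the same length (at least 1), and 0 of the 10 windows of 8 other members held one. Agpat5 has no window in the table used. It has no match to a FoxO motif (TGTTTAC, in 3.65% of windows), an ETS motif (CCGGAAG, 8.86%), a TATA box (TATAAA, 13.6%) or a GC box (GGGCGG, 35.7%), each searched on both strands. A GC box was present in 8 of the 10 windows of the other members. The Agpat4 window has 11 CpG dinucleotides, beside a median of 7 over all windows. Within the family this was low: fewer stood only in an Agpat1 window (4) and a Gpam window (9). The highest was Lpcat4 with 45.

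Of the tested genes nearest to Agpat4 on chromosome 17 that are given here, 0 passed the edgeR test and 0 had an unadjusted p under 0.05. Over all tested genes the shares were 0.0997% and 6.96%, so nothing is read from these counts in so few genes. Map3k4, a stress kinase gene 7.98 kb beyond its end, had 38.1, 31.1 and 43.7 CPM in Phlpp1-deficient libraries, against 42.2, 26.6 and 38.6 CPM in WT libraries (log2 difference 0.07, edgeR adjusted p = 0.9998). The others before Agpat4 were Pde10a, 1700010I14Rik and Qk, at 3132, 3107 and 1799 kb. Those after Agpat4 were Igf2r, Airn and Mrpl18, at 463, 522 and 692 kb. The log2 differences of these genes lay between -0.52 and 0.65. In Pde10a the groups did not overlap, as in 11.1% of all tested genes. It was at 0.79 to 0.88 CPM in Phlpp1-deficient and 0.36 to 0.72 CPM in WT libraries. The pseudogene Tdgf1-ps2, annotated inside Agpat4 on the same strand, had 0 counts in the 6 libraries. Lpcat3 overlaps Emg1 and Agpat1 overlaps Egfl8 on the opposite strand at their ends, with 4998 and 224 counts over the libraries. Whether counting used strand is not stated in the sources, so reads in these overlaps could belong to either gene.

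The tested genes whose log2 CPM over the 6 libraries was most like that of Agpat4, among 10418 ranked genes, were Plekha6 (Pearson r = 0.996), Itgad (r = 0.987), Slc25a40 (r = 0.971), Rbm48 (r = 0.969) and Gtf2e2 (r = 0.966). They lie on chromosomes 1, 7, 5, 5 and 8. In all 5 the groups did not overlap, against 11.1% of all tested genes. Since the 5 were chosen by likeness to Agpat4, nothing is read from that count. Plekha6, a lipid-binding adaptor gene, had 32.5, 48.7 and 49.7 CPM in Phlpp1-deficient libraries 1, 2 and 3, against 6.62, 6.35 and 5.77 CPM in WT libraries 1, 2 and 3. Slc25a40, a mitochondrial carrier gene, had 22.1 ± 0.309 CPM in Phlpp1-deficient and 18.1 ± 0.791 CPM in WT libraries (SD, n = 3 each). The likeness is over 6 libraries that share the genotype gap, and is a description.

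The rest of the glycerophospholipid pathway was read from 8 lists holding 137 genes besides the members, of which 113 were tested. With edgeR 0 were called in either direction, 4 (3.54%) had an unadjusted p under 0.05, against 6.96% of all tested genes, and DESeq2 and limma-voom also called 0. The groups did not overlap in 15 of the 113 (13.3%), against 11.1% of all tested genes. The median log2 difference was -0.02, the same as over all tested genes, with 52 above 0 and 61 below. By list, 0 of 6 other lysophospholipid acyltransferases were called (median -0.07), and 0 of 7 genes of glycerol-3-phosphate and ether lipid entry (0.03). The count was 0 of 17 for genes around phosphatidic acid, diacylglycerol and triglyceride, a list that includes diacylglycerol kinases, which make phosphatidic acid (0.15). It was 0 of 7 for CDP-diacylglycerol and cardiolipin (-0.13) and 0 of 13 for phosphatidylcholine, phosphatidylethanolamine and phosphatidylserine synthesis (-0.09). It was 0 of 31 for phospholipases and lysophospholipases (-0.02), 0 of 11 for lysophosphatidic acid and platelet-activating factor signalling (-0.13) and 0 of 22 for acyl-CoA supply (-0.09).

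The 4 genes at an unadjusted p under 0.05 are named with their values, although none was called. Scd1, the desaturase that makes oleate, had 257, 107 and 130 CPM in Phlpp1-deficient libraries, against 72.7, 88.9 and 86.0 CPM in WT libraries (log2 difference 0.996, SE 0.33, edgeR adjusted p = 0.551). Acsbg1, an acyl-CoA synthetase, had 109, 105 and 66.7 CPM in Phlpp1-deficient libraries, against 65.3, 40.9 and 52.6 CPM in WT libraries (log2 difference 0.82, SE 0.25, edgeR adjusted p = 0.506). In both genes every Phlpp1-deficient library lay above every WT library. Gpd1l, related to the dehydrogenase that makes glycerol-3-phosphate, had 118 ± 7.21 CPM in Phlpp1-deficient and 85.4 ± 8.42 CPM in WT libraries (SD, n = 3 each; edgeR adjusted p = 0.494). Cds1, which turns phosphatidic acid into CDP-diacylglycerol, had 7.96 ± 1.61 CPM in Phlpp1-deficient and 12.1 ± 1.52 CPM in WT libraries (SD, n = 3 each; edgeR adjusted p = 0.591).

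The other named pathway genes were those with the lowest p-values in their lists, and were not chosen by substrate. Mboat1 and Lclat1, other lysophospholipid acyltransferases, had log2 differences of -0.26 (SE 0.19) and -0.14 (SE 0.20). Agps of ether lipid synthesis was at -0.39 (SE 0.17), the phosphatidic acid phosphatase gene Plpp2 at -0.48 (SE 0.23) and the diacylglycerol kinase gene Dgke at 0.35 (SE 0.17). Pgs1 of cardiolipin synthesis was at -0.19 (SE 0.27), and Pcyt1b and Pisd of phosphatidylcholine and phosphatidylethanolamine synthesis were at -0.52 (SE 0.28) and -0.25 (SE 0.14). The phospholipase genes Pla2g6 and Plbd1 were at 0.37 (SE 0.16) and -0.47 (SE 0.21). Of the receptors of lysophosphatidic acid, the substrate of AGPAT enzymes, Lpar5 was at -0.29 (SE 0.24) and Lpar6 at -0.26 (SE 0.16). The other tested receptors differed in sign. None of these 12 genes was called, and their edgeR adjusted p-values lay between 0.735 and 0.9998.

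**Figure D5:**
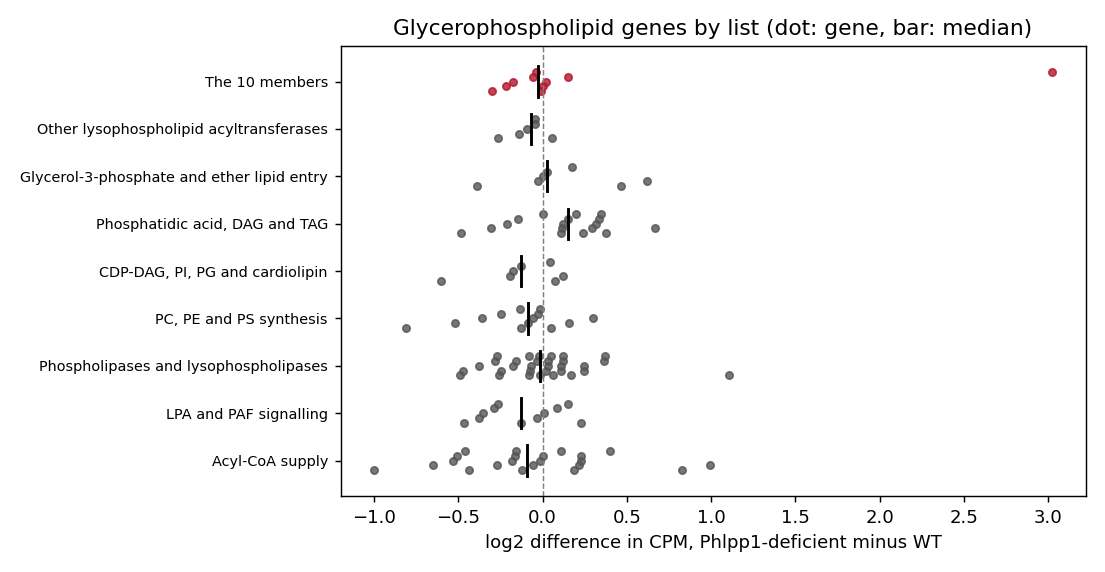
Log2 difference in CPM, Phlpp1-deficient minus WT, of each tested gene (dot) in the 8 glycerophospholipid lists and among the 10 acyltransferases (red), with list medians as bars. Agpat4 at 3.02 is the one dot beyond the range of -0.998 to 1.11 that holds the 113 pathway genes; DAG, TAG, PI, PG, PC, PE, PS, LPA and PAF stand for the lipids named in the text.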

How the data were processed

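The authors deposited 1 table of read counts and FPKM values (fragments scaled by gene length and library total) per gene, per the file headers, for 6 libraries. HISAT2, StringTie 1.3.0 and edgeR, with the mm10 build, stand in the submitters' processing notes with no role for each. The FPKM deposited by the authors follow from the counts, the library total and 1 length per gene (checked on 9265 genes); that length was 2734 to 13091 bases for the members. Gene IDs were matched to GENCODE M21 (34344 of 34745).

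Counts were fitted in edgeR 4.0.16 under R 4.3.3 (filterByExpr, TMM, robust glmQLFit, glmQLFTest) over 14037 genes, with Benjamini-Hochberg adjustment and a threshold of 0.05. CPM use TMM-scaled totals. Standard errors are the log2 difference over the square root of F. Alternatives were a replicate block, leaving out each library, DESeq2 1.42.0, limma 3.58.1 (voom, and log2 FPKM), RLE factors, library totals and other filters. Transcripts were compared with blastn 2.17.0.

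The members and lists were chosen with earlier results of these data known. Named genes are the members, Phlpp1, called or else the 2 lowest-p genes per pathway list, 5 genes most like Agpat4 (mean of at least 5 CPM, no clone or predicted names), its neighbours, and the 2 markers per cell type list with the highest CPM; 1 gene under this rule is not reported here. No library pair of a group agreed within sampling noise.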

Additional observations from a re-analysis of the deposited data

How the results depend on the processing

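The number of called genes over all genes was 14. It was 172 with DESeq2, 23 with limma-voom, 36 without a filter on low counts, 22 with limma on log2(FPKM + 1), 27 with log2(FPKM + 0.1), 1 with the replicate number as a block, and between 1 and 32 when each library was left out. The number of called members, 1 (Agpat4), was 0 with the replicate block and between 0 and 1 when each library was left out. The log2 difference of Agpat4 lay between 2.28, on the log2(FPKM + 1) scale, and 3.23. The count of called pathway genes stayed at 0 under all 15 alternatives run. When each library was left out, the log2 difference of Lclat1 lay between -0.26 and 0.079 (above 0 without WT library 3) and that of Pgs1 between -0.39 and 0.093 (without WT library 2), and the cause was not tested. Leaving out 1 library turned the sign of 7 of the 9 other members, with Agpat2 between -0.72 and 0.13 and Lpcat2 between -0.50 and 0.40. It put the median of the CDP-diacylglycerol list between -0.076 and -0.0032, and that of the other lysophospholipid acyltransferases between -0.17 and -0.035. No label says whether the replicate numbers pair the libraries, and 3 libraries per group are too few to decide it. Same-numbered deviations from the group means correlated at -0.125, 0.334 and 0.295. Phlpp1-deficient library 1 correlated best with WT library 2 (0.236), and the highest value was 0.341, for Phlpp1-deficient library 3 with WT library 1.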
